A study of Phaseolus coccineus with 4 samples.

Results

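MYB transcription factors were followed in globular embryos of scarlet runner bean (Phaseolus coccineus) by the soybean probe sets that carry a MYB name. A probe set is a group of short array oligonucleotides that together report 1 transcript. The members were all soybean probe sets whose single gene symbol in the platform annotation was MYB followed by a number. This gave 102 probe sets for 65 gene symbols, out of 37593 soybean probe sets, of which 8677 had a single symbol. Genes are counted by symbol here, so MYB145 counts as 1 although its probe sets carry different gene identifiers. A further 15 probe sets named a MYB gene together with another gene and were not members. The study compared 2 regions of the untreated embryo of 1 cultivar, Hammond's Dwarf Red Flower, 6 days after pollination: the embryo proper, which forms the plant, and the suspensor, the stalk that joins it to the seed tissue. Each region was cut by laser from sections of seeds and was represented by 2 samples, called biological replicates in the labels. The source plants are not named, so a p-value covers the spread between samples, 2 per region, and no wider spread. In the limma fit used here, the variance of each probe set was also drawn toward a trend over all tested probe sets. The RNA was amplified and hybridised to soybean arrays, so bean transcripts were read by probes made for another legume, and a transcript can be abundant and still give little signal.

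MYB proteins are transcription factors that bind DNA through a domain of imperfect repeats, and in plants they form one of the largest families of regulators. Members control the phenylpropanoid and flavonoid pathways, cell fate and cell division, and responses to drought, salt and cold. Many act in complexes with bHLH and WD40 proteins. Soybean MYB numbers were given within soybean, so they do not match the numbers of Arabidopsis genes, and for most members described here no role is stated.

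Signals were deposited as linear intensities, and having only 2 arrays per region limits the precision. The array also carries probe sets for Phytophthora and nematode, called the non-plant probe sets here. Background was defined per array as the 95th percentile of the non-plant probe sets. That level stood at 881 and 873 for embryo proper (arrays 1 and 2), and at 925 and 1034 for suspensor. Input RNA was 60 and 75 ng for embryo proper and 106 and 137 ng for suspensor. The median signal of 18 hybridisation spike probe sets was 46706 and 58957 in embryo proper, lower than the 97327 and 159448 of suspensor, so input and spike signal both differed by region, and their part in the results below was not tested. In whole regions, fewer cells of a type and less RNA per cell cannot be told apart. Of 5 tested probe sets listed as embryo proper markers, 2 were called higher there. These were for PSAD, a photosystem I subunit, with a bound of 14.6-fold, and for CAB3, 5.42-fold (limma, adjusted p = 0.0088 and 0.026). The PSAD bound compares mean signals with the background level and takes no account of the spread between replicates. The other tested PSAD probe set overlapped between regions and pointed the other way, at a log2 difference of 0.37. The other tested CAB3 probe sets had -0.50 and -0.85, and none of these passed. Of 7 tested probe sets listed as suspensor markers, all for GASA genes, 1 was called higher in suspensor, for GASA14, 6.97-fold (adjusted p = 0.014). The suspensor list did not move as one: GASA4, GASA9 and GASA3 had negative log2 differences of -1.20, -1.64 and -0.30, none of which passed, and GASA4 did not overlap between regions. Markers listed for endosperm and vascular tissue matched no symbol, and of 13 probe sets listed for seed coat, 11 were above background on no array.

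Most MYB probe sets gave no signal above background in either region. On embryo proper arrays 1 and 2, 15 and 18 of the 102 were above background, and on suspensor arrays 1 and 2, 18 and 12 were. In embryo proper 11 members (10.8%) were above background on both arrays, 11 on 1 array and 80 on neither. In suspensor 7 members (6.86%) were above background on both arrays, 16 on 1 array and 79 on neither. Over all soybean probe sets the share above background on both arrays was 18.1% in embryo proper and 14.7% in suspensor. The regional counts of members thus rest on few probe sets, and single suspensor arrays differed, at 18 and 12, by more than the regions' counts on both arrays.

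**Figure D1:**
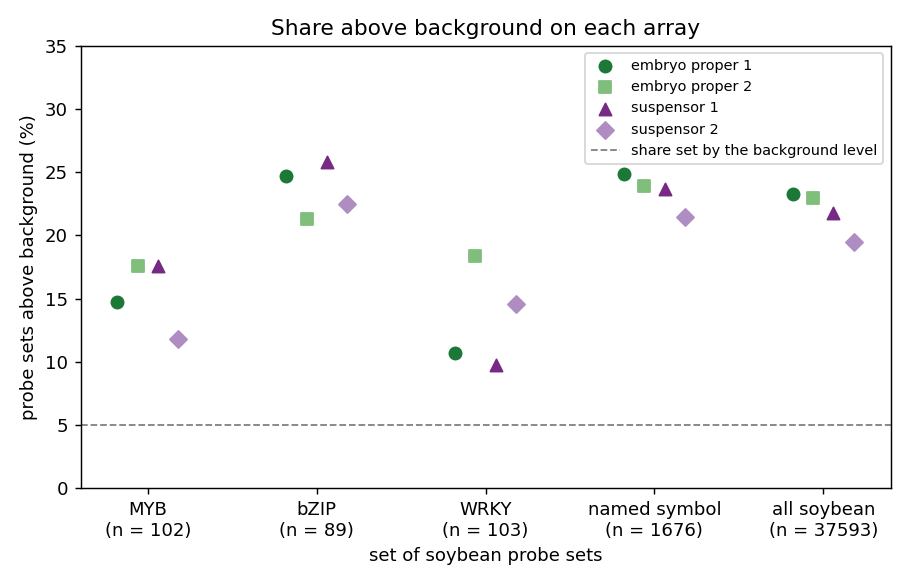
Share of probe sets above background (y axis, percent) on each of the 4 arrays for MYB, bZIP and WRKY probe sets, for all with a single symbol that is no placeholder, and for all soybean probe sets; the dashed line marks the 5% that the background level sets in the non-plant probe sets. MYB shares lay between 11.8% and 17.6%, below the 19.5% to 23.3% of all soybean probe sets on every array.

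Compared with other families of transcription factors, MYB probe sets took no fixed place. Above background on at least 2 of the 4 arrays were 18 of 102 MYB probe sets (17.6%), 15 of 103 WRKY probe sets (14.6%) and 24 of 89 bZIP probe sets (27%). On single arrays the MYB share was below that of bZIP on all 4, above that of WRKY on replicate 1 of each region, and below it on replicate 2, at 17.6% against 18.4% in embryo proper and 11.8% against 14.6% in suspensor. The share was 23.9% over all soybean probe sets and 26% over other probe sets with a single symbol that is no placeholder. Among the non-plant probe sets it was 4.7%. These shares are given as a description, since probe sets of a gene are not independent and detection depends on how well each soybean probe fits the bean transcript.

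Members above background on no array numbered 73, or 71.6%, against 65.7% of all soybean probe sets, and they left 40 of the 65 genes with no probe set above background. Their signals ran from 4 to 910, with a median of 120. The highest, 910 on suspensor array 1, belonged to a probe set of MYB172 and lay just under that array's level of 925. The median over members of the highest signal among the 4 arrays was 0.537 times background, against 0.717 for all soybean probe sets. Genes of this group with a described role in soybean include MYB29, which activates isoflavone synthesis genes, and MYB76 and MYB177, which raised stress tolerance when overexpressed in Arabidopsis.

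**Figure D2:**
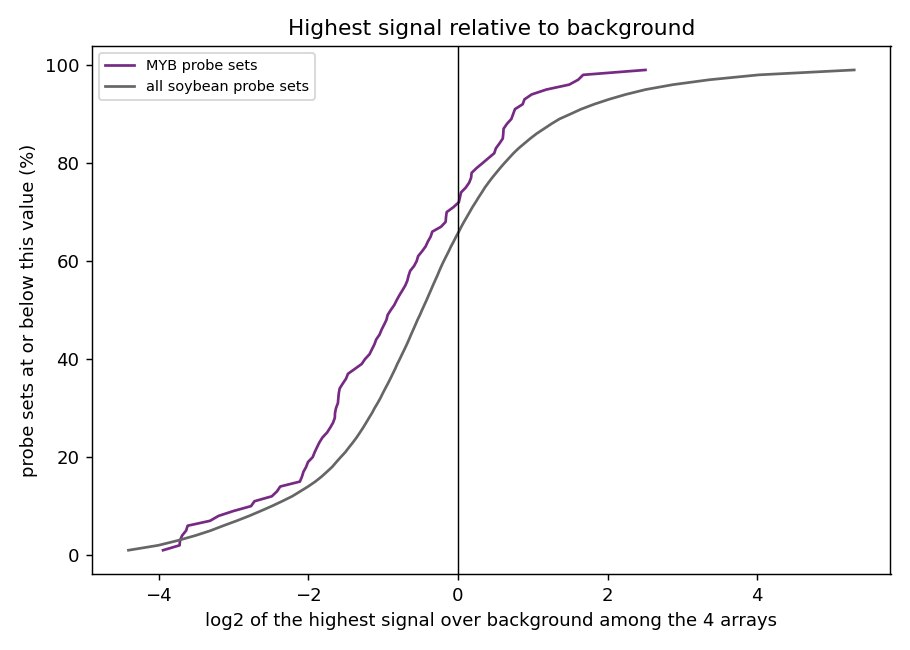
Cumulative share of probe sets (y axis, percent, shown from the 1st to the 99th percentile) by the highest signal over background among the 4 arrays (x axis, log2), for the 102 MYB and the 37593 soybean probe sets. The MYB curve lies to the left over most of its length, and it crosses the background line, at 0, at a higher share, 71.6% against 65.7%.

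The brightest member was MYB107, for which no role is stated here. Embryo proper arrays read 26671 and 26736 and suspensor arrays 20150 and 10424, which puts it at the 98.9th percentile of soybean probe sets by mean signal. Both suspensor signals lay below both embryo proper signals, and the suspensor replicates differed 1.93-fold. The log2 difference, suspensor minus embryo proper, was -0.88 (95% interval -1.78 to 0.02) and did not pass in limma (adjusted p = 0.26). Without suspensor replicate 1 it was -1.36 with an adjusted p of 0.022, a range of 0.022 to 0.7 over the alternatives tried.

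After MYB107 came the 2 probe sets of MYB83 and the 2 brightest of MYB12A, which complete the 5 brightest members. The brighter MYB83 probe set read 5035 and 4644 in embryo proper, against 2935 and 3961 in suspensor. The dimmer one has shared probes, meaning that its identifier marks probes that can also bind other transcripts, and it read 2488 and 1788 in embryo proper, against 1571 and 1051 in suspensor. Both were lower in suspensor with no overlap, at log2 differences of -0.50 and -0.71, and neither passed (adjusted p = 0.42 and 0.36). Since their identifiers share a stem, they do not count as independent readings. MYB12A read 2271 and 2402 in embryo proper, against 2826 and 3133 in suspensor, by its brightest probe set, a log2 difference of 0.35 (95% interval -0.42 to 1.12; adjusted p = 0.58). Its second probe set, with shared probes, had 1751 and 1059 against 803 and 1441, overlapped between regions and pointed the other way, at -0.34. MYB107, MYB83 and MYB12A were the genes with a probe set over 2 times background on all 4 arrays, 3 probe sets in all.

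**Figure D3:**
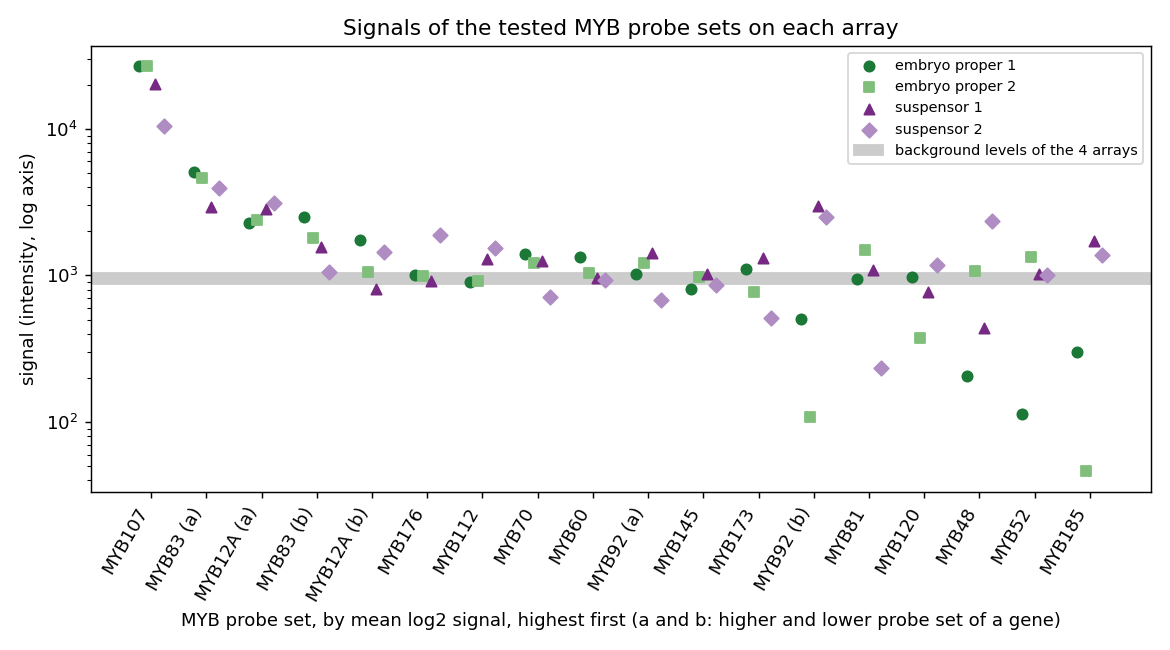
Signals (y axis, intensity on a log axis) of the 18 MYB probe sets above background on at least 2 of the 4 arrays, 1 point per array, ordered by mean log2 signal; the grey band spans the background levels of the 4 arrays, 873 to 1034. MYB107, MYB83 and MYB12A stand above the band on all 4 arrays by their brightest probe sets, and 1 MYB92 probe set, marked b, and MYB185 are above it in suspensor and below it in embryo proper.

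Signal in suspensor alone was seen for 2 members, MYB92 and MYB185, and signal in embryo proper alone for 0. Here alone means above background on both arrays of 1 region and on neither of the other. Over all soybean probe sets the counts were 421 (1.12%) for suspensor and 906 (2.41%) for embryo proper. With 102 members, counts of 2 and 0 are too few to set apart from these shares. MYB92 raised tolerance to salt and freezing when overexpressed in Arabidopsis. By 1 of its 2 tested probe sets, embryo proper arrays read 507 and 108, below background, and suspensor arrays 2952 and 2510. By mean signal the bound was 3.07-fold, with suspensor higher. It is set by the background level and takes no account of the spread between replicates. The probe set missed the threshold (limma, adjusted p = 0.068, and 0.022 to 0.12 over the alternatives that keep all arrays). The lowest was with the replicate block. The other one read 1026 and 1214 in embryo proper, against 1413 and 677 in suspensor, and overlapped between regions, with a log2 difference of -0.19. Another MYB92 probe set was above background on no array, at 26 and 8 against 27 and 29. The 3 probe sets named MYB92 therefore gave different readings, and both tested ones carry shared probes.

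MYB185 read 302 and 46 in embryo proper, against 1714 and 1368 in suspensor, and the regions did not overlap. By mean signal the suspensor level exceeded that of embryo proper by at least 1.73-fold. That bound is set by the background level and takes no account of the spread between replicates. The probe set fell short of the threshold (limma, adjusted p = 0.2, and 0.14 to 0.26 over the alternatives that keep all arrays). Its fitted log2 difference of 3.46 had a 95% interval of 0.42 to 6.50. The embryo proper replicates, both below background, differed 5.1-fold, and a difference fitted to such signals is no measure of the fold. MYB185 has 1 probe set, without shared probes, so no second reading exists among the members. No role is stated here for this gene.

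MYB176 and MYB173 are known in soybean as regulators of chalcone synthase genes, which open the flavonoid pathway. MYB176 read 1004 and 986 in embryo proper, against 910 and 1895 in suspensor, of which 910 is just below background. For MYB173 the readings were 1106 and 771 against 1308 and 515, above background on replicate 1 of each region alone. In both genes the regions overlapped, at log2 differences of 0.40 (95% interval -0.76 to 1.55) and -0.16 (95% interval -1.63 to 1.3). CHS8, a chalcone synthase gene that MYB176 activates in soybean, read 1094 and 1122 against 1389 and 729 by its 1 tested probe set, with a log2 difference of -0.13 (limma, adjusted p = 0.91). None of these values passed, and the probe sets of MYB176 and CHS8 have shared probes.

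The remaining tested members lay close to background. MYB112 read 902 and 913 in embryo proper, against 1293 and 1528 in suspensor, above background on all 4 arrays with no overlap and a log2 difference of 0.62 (adjusted p = 0.43). For MYB60 the readings were 1340 and 1034 against 960 and 925, higher in embryo proper with no overlap, and suspensor array 2 was below background. MYB70 read 1393 and 1219 in embryo proper, against 1255 and 715 in suspensor, which overlapped. In these 3 genes the highest signal over background was 1.48, 1.52 and 1.58 times. MYB81 read 951 and 1482 in embryo proper, against 1093 and 233 in suspensor, and its log2 difference of -1.20, the most negative among the tested members, rests on suspensor replicate 2. Without that array it was -0.12.

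Replicates disagreed most in MYB48 and MYB52, so their positive differences are not larger than the spread. MYB48 read 205 and 1066 in embryo proper, against 435 and 2362 in suspensor, low on replicate 1 and high on replicate 2 of both regions. The other MYB48 probe set was above background on no array, at 69 and 57 against 57 and 384. For MYB52 the readings were 113 and 1328 against 1025 and 1008, and its embryo proper replicates differed 10.5-fold. The log2 differences were 1.08 (95% interval -1.46 to 3.63) and 1.31 (95% interval -1.36 to 3.99), and each changed sign without embryo proper replicate 1, to -0.06 and -0.38. MYB120 read 980 and 373 in embryo proper, against 770 and 1172 in suspensor, and MYB145 read 813 and 974 against 1022 and 864. Both overlapped between regions, and the MYB145 difference of 0.08 became -0.09 when arrays were centred on the non-plant probe sets. The other probe set named MYB145 was above background on no array.

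Suspensor was compared with embryo proper to ask which transcripts differ between these regions. Of the 18 tested MYB probe sets, for 15 genes, 0 were called in either direction by limma at an adjusted p under 0.05, where 2.75% of all 8972 tested probe sets were called, 0.892% as higher in suspensor and 1.86% as higher in embryo proper. That share of 18 probe sets is under 1 call, so a count of 0 is near the background. At an unadjusted p under 0.05 there were 2, MYB92 and MYB185, against 20.1% of all tested probe sets. These 2 were above background on the suspensor arrays alone, so they entered the test through the region where they are high. Of the 18, 9 had a positive and 9 a negative log2 difference, with a median of -0.04, against a median of -0.18 and 40.8% positive over all tested probe sets. The median size of the difference was 0.56 for the members and 0.58 for all. The regions did not overlap in 8 of 18 members, 4 higher in each region. Over all tested probe sets they did not overlap in 53.2%, with suspensor higher in 19.8% and embryo proper in 33.4%. Half-widths of the 95% interval had a median of 1.16 on the log2 scale among the members, and the smallest difference called among all tested probe sets was 1.46 in size. Fold changes are on the log2(intensity + 16) scale, where the added 16 shrinks ratios of dim signals. Where the signals of a region lie below background, the fitted fold is no measure of the change and can be too large or too small.

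**Figure D4:**
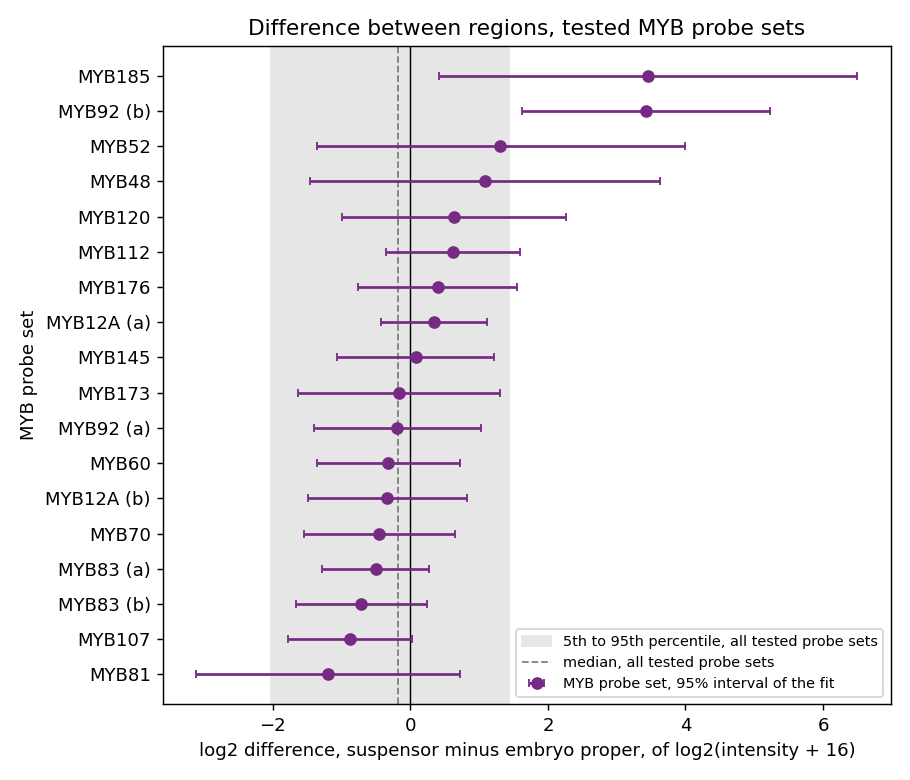
Log2 difference, suspensor minus embryo proper (x axis), of the 18 tested MYB probe sets with the 95% interval of the limma fit (bars); the grey band spans the 5th to 95th percentile of all tested probe sets and the dashed line is their median of -0.18. MYB185 and the MYB92 probe set that was below background in embryo proper lie to the right of the band with intervals above 0, and the other intervals include 0. MYB185 and that MYB92 probe set passed the filter through the suspensor arrays alone, where they are high.

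In embryo proper the replicates of the tested members spread more than those of all tested probe sets, by SD. Between replicates, the log2 difference had an SD of 1.33 for members in embryo proper, against 0.79 for all tested probe sets, and 1.01 in suspensor, against 1.07. Members with a signal below background in embryo proper had the widest gaps there. These were MYB52, MYB185, MYB48 and 1 MYB92 probe set, at 10.5-fold, 5.1-fold, 4.9-fold and 4.22-fold. MYB185 and that MYB92 probe set passed the filter through suspensor alone, with both embryo proper signals below background. The SD of 1.33 thus rests largely on few probe sets, and no trait of the members is read from it. Of the 18 members, 11 had at least 1 array within 1.2-fold of background, where a small shift in scale decides detection. Shared probes were present in 7 of the 18, among them the probe sets of MYB176, MYB52 and MYB145.

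Most genes with several probe sets had none that could be tested. Of 25 genes with several member probe sets, 19 had none tested, 5 had some but not all tested and 1, MYB83, had all tested. MYB12A has 4 probe sets, and beside the 2 described above one read 43 and 108 in embryo proper, against 38 and 478 in suspensor, above background on no array. For 4 genes, MYB11, MYB12A, MYB13 and MYB14, probe sets on 1 identifier stem carry both S1 and A1, the letters for the orientation of the sequence the probes were designed from. In MYB12A the S1 probe sets had signal and the A1 probe set did not. In MYB14 it was the A1 probe set that exceeded background, on 1 array. It read 235 and 260 in embryo proper, against 1545 and 798 in suspensor, where the S1 probe set read 74 and 8 against 207 and 331. In MYB11 the A1 probe set read 1000 and 668 against 138 and 333, and the S1 probe set was above background on no array. Both MYB13 letters were below background throughout. MYB92 has no stem with both letters, but both of its tested probe sets are A1. Its S1 probe set is the one that read 26 and 8 against 27 and 29.

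Members above background on a single array numbered 11, and 5 of these exceeded it by less than 1.2-fold. On an embryo proper array these were MYB118, MYB127, MYB181, MYB186 and 2 probe sets of MYB11, and on a suspensor array MYB14, MYB55, MYB128, MYB133 and MYB183. The regions did not overlap in 2 with suspensor higher, MYB14 and MYB133, and in 3 with embryo proper higher, MYB118, MYB186 and a MYB11 probe set. Over all soybean probe sets above background on 1 array, the shares were 20.4% and 19.1%. MYB133 read 403 and 748 in embryo proper, against 1115 and 804 in suspensor. MYB118, which raises drought and salt tolerance in soybean, read 1180 and 384 in embryo proper, against 234 and 249 in suspensor. These members were below the filter and were not tested.

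Genes that work with or below MYB proteins were also looked up by symbol. No symbol matched the list for bHLH and WD40 partners. Of 13 probe sets for single-repeat relatives of MYB proteins, 3 were tested and 0 passed: LHY, a clock gene, had a log2 difference of -0.20, and PHR25 and PHR13 had -0.68 and -0.84. Of 72 probe sets for phenylpropanoid and flavonoid enzymes, 15 were tested, 0 passed in either direction, and the median log2 difference was 0.12. Among these CHI4A, a chalcone isomerase, read 603 and 149 in embryo proper, against 1739 and 1111 in suspensor. The bound by mean signal was 1.57-fold, with suspensor higher. FLS1, a flavonol synthase, read 1331 and 1342 against 282 and 895, a bound of 1.36-fold with embryo proper higher. UGT1 had probe sets on either side, one with a bound of 2-fold for suspensor and another with 1.33-fold for embryo proper. These bounds take no account of the spread between replicates, so they are no minimum for the true difference. None of these passed (limma, adjusted p between 0.17 and 0.31). Of 47 tested probe sets of other transcription factor families, 1 was called, for BZIP90, higher in suspensor.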

How the data were processed

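The authors deposited 1 linear intensity per probe set and array, using GCOS 1.3, per the submitters' processing notes. Of the summary method nothing is given in the sources used here. The trimmed mean, leaving out 2% at each end, was 500 on each array, and values were used on that scale. Arrays hold 61170 probe sets, of which 23350 for Phytophthora and nematode set the background. Seeds were fixed in ethanol and acetic acid, and regions were cut from sections of 6 µm, per the labels' protocols. Soybean probe sets above background on at least 2 of 4 arrays, 8972 in all, were compared as log2(intensity + 16) in limma 3.58.1 under R 4.3.3 (lmFit, eBayes with a variance trend, Benjamini-Hochberg over all tested). The fit was also run on data simulated with normal noise from its own variances, which cannot show how it handles signals near background. Where both arrays of a region were below background, a fold is a bound: the dim array's signal was replaced by the lowest soybean signal above background there, unless its own was higher, before log2 means were compared. Such a bound takes no account of the spread between replicates.

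Symbols came from the platform annotation; 0 of its gene identifiers occur in the reference table (34063 bean genes), so no positions or sequences are given. All tested members are named with values, others by count, with members above background on 1 array also named; from each list the members with the smallest p were named, and any others, such as MYB172, MYB29, MYB76 and MYB177 and the pairs by orientation, were chosen after their values were seen. Members and lists were chosen with earlier results of these data known. Alternatives covered pseudocount, normalization, background level, filter, shared probes, variance trend, replicate block and leaving out each array. Figures were drawn with matplotlib 3.10.9.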

Additional observations from a re-analysis of the deposited data

Results flagged for a closer look

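Of the 15 probe sets that name a MYB gene together with another gene, which lie outside the comparison, 2 were above background on at least 2 of the 4 arrays. The probe set for MYB180 or MYB93 read 1099 and 969 in embryo proper, against 1216 and 1025 in suspensor, above background on 3 arrays. The probe set for MYB112 or MYB50 read 447 and 1157 against 151 and 1418, above background on replicate 2 of each region. Neither was called by limma (adjusted p = 0.91 and 0.81). With 2 samples per region, single outlying samples were not tested.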

How the results depend on the processing

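All settings were planned; 15 alternatives of the fit were run. MYB probe sets called higher in suspensor numbered 0 as reported and 1 with the replicate block (MYB92, adjusted p = 0.022); with 1 array left out they numbered 0 to 0. Those called higher in embryo proper numbered 0 to 1 with 1 array left out (MYB107 without suspensor replicate 1). No other setting called a member. Arrays that share a replicate number showed a correlation of -0.024 between their deviations across tested probe sets, and the labels give the number no meaning, so the samples were not treated as pairs. The median log2 difference of the members, -0.04, was -0.50 with background at the 99th percentile, -0.50 with detection on all 4 arrays and 0.20 with no filter, which test 5, 5 and 102 members; it was 0.08 when centred on tested probe sets, -0.21 when centred on non-plant probe sets, and -0.06 to 0.07 with 1 array left out. Members above background on both arrays were, for embryo proper and suspensor, 4 and 4 at the 99th percentile and 16 and 13 at the 90th, against 11 and 7 as reported, and 7 and 5 without shared probes; on a single array they numbered 15 to 18 in embryo proper and 12 to 18 in suspensor. By gene the counts were 10 and 6.

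Of 165 member results under the alternatives that keep all arrays, 163 kept direction and side of the threshold; the others were MYB92 with the block and MYB145, -0.09 when centred on non-plant probe sets. With 1 array left out, 12 of 72 changed sign, in 8 probe sets. The range over the left-out arrays was -0.75 to 0.08 for MYB12A (second probe set), -0.11 to 2.28 for MYB48, -0.13 to 0.92 for MYB176, -0.38 to 3.01 for MYB52, -0.05 to 0.21 for MYB145, -0.82 to 0.49 for MYB173, -0.04 to 1.31 for MYB120 and -0.71 to 0.34 for MYB92 (the probe set that overlapped between regions). The lone array was then assumed to vary like the other region.

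Over all tested probe sets, calls higher in suspensor and in embryo proper were 80 and 167. Quantile normalization gave 195 and 237, centring on tested probe sets 129 and 196, centring on non-plant probe sets 48 and 154, the 99th percentile 134 and 293, detection on all 4 arrays 192 and 334, no shared probes 48 and 111, no variance trend 21 and 66, the replicate block 138 and 292, and leaving out 1 array 3 to 153 and 3 to 1054. The cause was not tested, except that stricter filters test fewer probe sets. Signal over background limits the rest: 73 of 102 members were above it on no array.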
